A study of Mus musculus with 4 samples.

Results

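The genes described here are 41 mouse genes that make, sense or store cholesterol and fatty acids. They were taken by symbol from 21594 gene symbols in the 4 count matrices, and all 41 were present. They fall into 14 enzymes of sterol synthesis, 5 regulators, 11 enzymes of fatty acid synthesis, 7 genes of triglyceride synthesis and lipid droplets, and 4 genes of fatty acid uptake and activation. Single cells from pancreatic islets were sequenced with a droplet method that counts unique molecular identifiers (UMIs, tags that mark individual captured RNA molecules). Mutants carried Atf4F/F with Ins1Cre, a recombinase under the control of an insulin gene, so Atf4 was meant to be lost in beta cells. Controls carried Atf4F/F alone. Effects of Ins1Cre and of missing Atf4 cannot be told apart, since only mutants carried the driver. Each group had 2 samples. Each sample was a pool of islets from mice aged 2 months, described in one place as 2 males and 2 females and in another as 3 to 4 mice. No treatment was given. The submitters' protocol also mentions tdT+ and tdT- beta cells processed together, and human K562 cells mixed in at 10% before encapsulation. With 2 pools a group, p-values measure only the spread between these pools.

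Cells make cholesterol from acetyl-CoA through mevalonate, squalene and lanosterol, and they make fatty acids from the same precursor through malonyl-CoA. SREBP-2, the product of Srebf2, drives sterol genes when membrane sterol is low, while Scap carries it out of the endoplasmic reticulum and Insig1 holds it there. Srebf1 and the glucose-responsive factor Mlxipl act more on fatty acid genes. In beta cells, both routes bear on membranes and on insulin granules. Atf4 encodes a factor that cells switch on under nutrient and protein-folding stress.

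Insig1, Srebf2 and Cyp51 are among the members with the lowest p-values between genotypes, and Hmgcs1 opens the sterol route. For these 4 members, windows of 250 bases near the gene start are shown. They come from the RefSeq promoter table (build GRCm38.p6, which matched 32 of the 41 members), at chr5:28071162-28071411 (plus strand) for Insig1, chr15:82147019-82147268 (plus) for Srebf2, chr13:119690101-119690350 (plus) for Hmgcs1 and chr5:4104698-4104947 (minus) for Cyp51. By GENCODE gene coordinates, the windows of Insig1, Srebf2 and Cyp51 run past the gene start (28071363, 82147181 and 4104746). The Hmgcs1 window ends before its gene start (119690379). The windows are thus not upstream sequence throughout. Capitals mark CCAAT or its reverse complement (the box that NF-Y binds), CACGTG (an E-box) and TCACNCCAC (one form of the sterol regulatory element).
Insig1: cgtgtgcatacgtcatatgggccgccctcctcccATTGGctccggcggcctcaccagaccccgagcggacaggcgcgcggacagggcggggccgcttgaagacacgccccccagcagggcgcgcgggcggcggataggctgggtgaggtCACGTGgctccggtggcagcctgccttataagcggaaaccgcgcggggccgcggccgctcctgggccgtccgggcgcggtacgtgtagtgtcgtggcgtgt
Srebf2: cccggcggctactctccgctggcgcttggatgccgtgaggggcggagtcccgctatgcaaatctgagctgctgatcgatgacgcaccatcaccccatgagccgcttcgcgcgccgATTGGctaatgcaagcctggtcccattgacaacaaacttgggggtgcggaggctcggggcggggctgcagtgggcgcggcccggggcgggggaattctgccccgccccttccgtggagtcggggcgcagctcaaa
Hmgcs1: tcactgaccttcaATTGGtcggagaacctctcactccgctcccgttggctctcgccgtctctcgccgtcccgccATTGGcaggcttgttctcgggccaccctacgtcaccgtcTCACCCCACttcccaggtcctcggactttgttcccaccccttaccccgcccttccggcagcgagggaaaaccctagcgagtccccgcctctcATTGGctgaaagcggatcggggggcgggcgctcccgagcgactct
Cyp51: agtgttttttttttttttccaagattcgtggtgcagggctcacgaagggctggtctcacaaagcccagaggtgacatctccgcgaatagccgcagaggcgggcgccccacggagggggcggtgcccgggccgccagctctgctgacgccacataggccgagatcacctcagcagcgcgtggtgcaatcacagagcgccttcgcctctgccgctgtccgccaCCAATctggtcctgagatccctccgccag
All 4 windows held a CCAAT box, and that of Cyp51 lay inside the gene by GENCODE coordinates. On either strand, CCAAT was found in 24 of the 32 matched members, among them 11 of 11 matched sterol synthesis genes. By window, it was in 11 of the 14 windows of those sterol genes, against 33.85% of all 32851 windows. CACGTG was found in 6 members and in 6.02% of all windows. TCACNCCAC was found in Hmgcs1 and Mlxipl and in 1.05% of all windows. A further form, TGATGNAA, which C/EBP-ATF dimers bind, was found in Gpam and Idi1 and in 3.45% of all windows. In the 4 windows shown no match overlaps another. The motifs and the 4 genes were chosen after values were seen. A match describes letters in a window and is no site.

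Of 11114 barcodes, 6995 passed the filter on cells. The libraries held 13706563 to 17655893 UMIs. Cells were clustered without the genes described here, and named by markers. Beta-like cells numbered 4157, with 1064 called alpha-like, 680 delta-like and 86 PP-like. A further 312 were endothelial-like and 209 macrophage-like, and 443 stayed unnamed. Of the unnamed cells, 216 and 180 came from controls 1 and 2, and 15 and 32 from mutants 1 and 2. Acinar genes led their cluster, and they entered no sum. A gate on hormone RNA asked that 1 scaled hormone share exceed the next 5-fold. It also named as delta 34 of 146 and 45 of 218 delta-like cells in mutants 1 and 2. In controls 1 and 2 it did so for 28 of 170 and 25 of 146. Pairs of libraries shared 41 to 82 barcodes. The insulin genes took 30.3% to 35.8% of UMIs in beta-like sums, and also 7.72% to 11.3% in alpha-like, 13.3% to 16.8% in delta-like, 17.7% to 30.5% in endothelial-like and 17.3% to 30.8% in macrophage-like sums, so insulin RNA was counted in every class. Glucagon (Gcg) was counted at 164245 to 172754 CPM (counts scaled to a total of 1000000) in alpha-like sums and at 1183 to 2203 CPM in beta-like sums. It was also counted at 20354 to 35651 CPM in delta-like, 5609 to 9594 CPM in PP-like, 6256 to 26287 CPM in endothelial-like and 9550 to 40400 CPM in macrophage-like sums. The part of alpha cell RNA in the contrasts of those classes was not tested, nor was that of beta cell RNA in the delta-like contrasts. In macrophage-like sums, the 6 B lymphocyte markers reached 8544.5 and 580 CPM in mutants 1 and 2. They reached 78.4 and 63.0 CPM in the controls. The 12 macrophage markers reached 7499, 14009, 5162 and 5981 CPM, in the same order. The macrophage-like class thus also held B lymphocyte RNA, most of it in mutant 1. Its part in the macrophage-like contrasts was not tested. Of the beta-like cells, clusters 4 and 14 held 80.9% in mutant 1 and 49.3% in mutant 2, but 1.13% and 1.76% in the controls. Clusters 1, 2, 5, 12 and 15 held 96.9% and 97.0% of the control beta-like cells, and 15.9% in mutant 1 and 30.3% in mutant 2. Cluster 0 held 193 cells of mutant 2 and 14 to 26 of each other sample. A beta-like value thus comes from a different mix of clusters in the 2 groups.

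Atf4 itself stood in beta-like cells at 3.29 CPM in mutant 1, 119 CPM in mutant 2, 360 CPM in control 1 and 379 CPM in control 2. Mutant 2 kept far more of it than mutant 1, and the difference did not pass (log2 -2.60 ± 0.995 SE, edgeR quasi-likelihood adjusted p = 0.285). Among beta-like cells, those in which Xist but no Y-linked gene was counted (Xist cells below, from the females of each pool) had it at 1.67 and 8.92 CPM in the mutants and at 345.5 and 452 CPM in the controls (log2 -6.37, edgeR adjusted p = 1.33e-05). For Cyp51, Insig1, Srebf2, Mlxipl and Lpl, differences are therefore also given without mutant 2. The other differences between genotypes come from both mutants. Alpha-like cells had Atf4 at 187, 226, 390 and 330 CPM, in the same order, and it fell by 0.80 on the log2 scale (SE 0.155, edgeR adjusted p = 0.0416).

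Beta-like cells carried more RNA of sterol synthesis than every other endocrine class, whatever the genotype. Levels here are CPM on the scale of one fit over all classes, with the sample as a block. The 14 sterol genes together reached 574 ± 30.3 CPM (SD, n = 4) in beta-like cells. They reached 307 ± 17.2 CPM in alpha-like cells, 355 ± 29.1 CPM in delta-like cells and, in the 2 samples with enough cells, 264 ± 44.6 CPM in PP-like cells. The lowest beta-like sample (538 CPM) lay above the highest alpha-like (328 CPM) and delta-like (398 CPM) samples. Endothelial-like and macrophage-like sums reached 356 ± 84.2 and 407 ± 96.2 CPM, with wider spread and fewer cells.

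**Figure D1:**
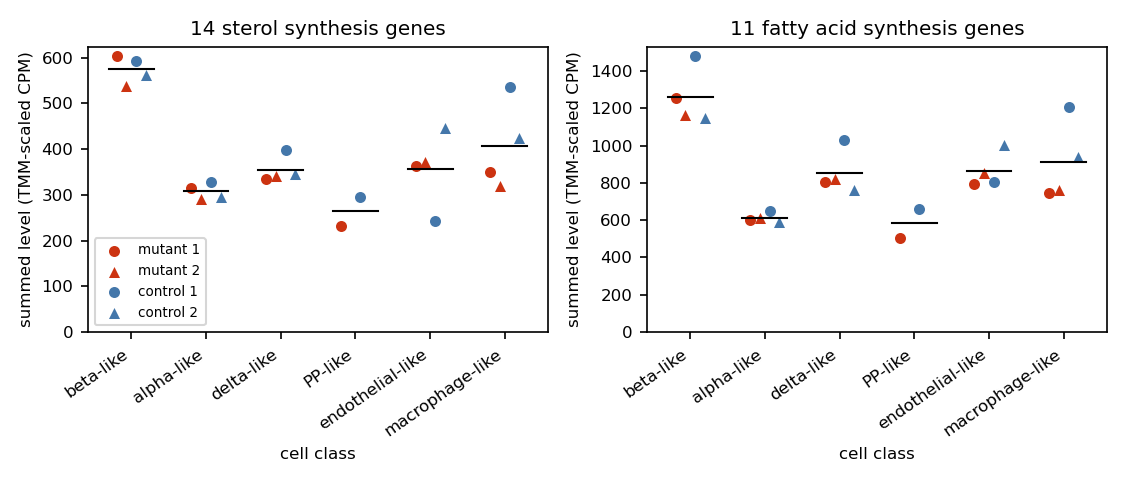
Summed level (vertical axis, TMM-scaled CPM) of the 14 sterol synthesis genes (left) and the 11 fatty acid synthesis genes (right) in each cell class (horizontal axis). Each point is 1 sample (controls blue, mutants red, circle replicate 1, triangle replicate 2) and each bar the mean over samples; beta-like cells stand at 574 CPM for sterol and 1260 CPM for fatty acid genes.

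Tested gene by gene, 12 of the 14 sterol enzymes entered the fit, and 10 of them were lower in alpha-like than in beta-like cells, with none higher. Over all genes tested, 18.5% were higher and 18.5% lower in alpha-like cells, 37% in all. The median log2 difference of the sterol enzymes was -0.91, against 0.01 for all genes. Msmo1, a sterol C4-methyl oxidase, stood at 144, 125, 137 and 114 CPM in beta-like cells of mutant 1, mutant 2, control 1 and control 2, and at 56.5, 48.3, 57.2 and 48.0 CPM in alpha-like cells. The classes did not overlap in any sample, and the difference was log2 -1.31 ± 0.117 SE (edgeR adjusted p = 3.81e-13). Sqle, the squalene epoxidase, was lower by about the same amount (log2 -1.09 ± 0.119). Hmgcs1, Fdps, Fdft1, Lss, Cyp51, Sc5d, Nsdhl and Mvd, which span the route from before mevalonate to late sterols, were lower by log2 -0.49 to -1.11. Mvk and Pmvk, the kinases that act on mevalonate, were not called, with log2 differences of 0.11 and 0.15.

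In delta-like cells 7 of the 12 sterol enzymes were lower and none higher, beside 12.8% of all genes lower. In PP-like cells, of which only mutant 1 and control 1 gave a sum, 4 were lower (6.02% of all genes), and all 4 rest on few UMIs there. Endothelial-like cells had 4 lower (12.6% of all genes) and macrophage-like cells 5 (12.1% of all genes). Fdps, which makes farnesyl diphosphate, Sqle, Cyp51 and Msmo1 were lower in all 5 classes than in beta-like cells. For Cyp51 the endothelial-like difference (log2 -0.66) did not pass in 8 of the 12 alternatives run, and the macrophage-like one (log2 -0.92) did not pass in the controls alone (adjusted p = 0.385) or without mutant 2 (0.0637). Since endothelial-like and macrophage-like sums contained much insulin RNA, their own level of a gene that is high in beta-like cells was not measured apart from it.

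**Figure D2:**
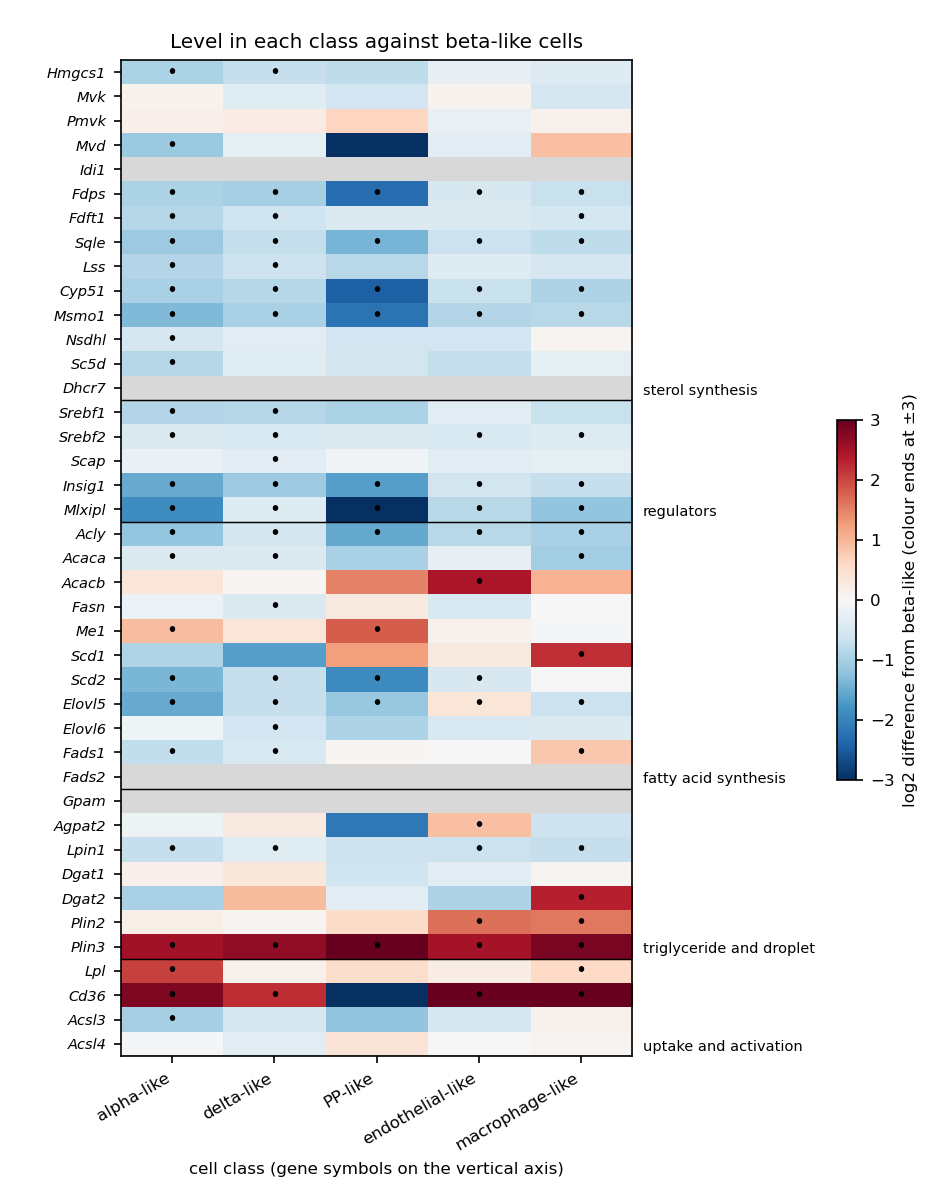
Log2 difference of each gene (rows, grouped by role) between a cell class (columns) and beta-like cells, as colour from blue (lower) to red (higher), with dots where the edgeR adjusted p passed 0.05 and grey where the gene was not tested. Sterol synthesis rows are blue in the alpha-like column for 10 of 12 genes tested, while Plin3 is red in all 5 columns.

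The regulators were also highest in beta-like cells as a sum, at 513 ± 81.5 CPM (SD, n = 4) against 252 ± 43.3 CPM in alpha-like and 345 ± 59.8 CPM in delta-like cells. Of the 5, 4 were lower in alpha-like, 5 in delta-like, 2 in PP-like, 3 in endothelial-like and 3 in macrophage-like cells than in beta-like cells, and none was higher, beside 18.5%, 12.8%, 6.02%, 12.6% and 12.1% of all genes lower. Insig1, which retains the SREBP carrier in the endoplasmic reticulum, stood at 97.9, 96.7, 142 and 114 CPM in beta-like cells and at 25.4, 37.6, 47.8 and 47.4 CPM in alpha-like cells (mutant 1, mutant 2, control 1, control 2). Every alpha-like value lay below every beta-like value. The difference was log2 -1.51 ± 0.128 SE (edgeR adjusted p = 7.21e-14). Insig1 was lower than in beta-like cells in all 5 classes, by log2 -0.54 in endothelial-like to -1.65 in PP-like cells.

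Mlxipl, the gene of the glucose-responsive factor ChREBP, stood at 120, 177, 203 and 199 CPM in beta-like cells and at 33.0, 55.5, 37.6 and 60.7 CPM in alpha-like cells. It was lower in alpha-like cells by log2 -1.87 ± 0.150 SE (edgeR adjusted p = 1.18e-14). Delta-like sums differed less from beta-like sums, at 125, 127, 147 and 132 CPM (log2 -0.38 ± 0.130, edgeR adjusted p = 0.0238). Insulin genes took 13.3% to 16.8% of UMIs in delta-like sums, and the part of beta cell RNA in these values was not tested. In the 2 PP-like sums Mlxipl had 0 UMIs in mutant 1 and 8 UMIs in control 1.

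Srebf2 differed less between classes, by log2 -0.41 to -0.47, and passed in each class but PP-like. Srebf1 was lower in alpha-like and delta-like cells by log2 -0.87 in each. Scap, the carrier, passed in the delta-like contrast alone of the 5 (log2 -0.35 ± 0.127, edgeR adjusted p = 0.0367), and whether the contrasts differ was not tested.
In macrophage-like sums, control 1 had the highest insulin share (30.8%) and also the highest Insig1 and Mlxipl, both at 168 CPM against 32.6 to 88.3 CPM in the other samples. The part of beta cell RNA in these values was not tested.

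Fatty acid synthesis genes were also highest in beta-like cells as a sum, but gene by gene they split. The 11 genes together reached 1260 ± 154 CPM (SD, n = 4) in beta-like, 613 ± 26.7 CPM in alpha-like and 853 ± 119 CPM in delta-like cells, with no overlap between beta-like samples (lowest 1145 CPM) and alpha-like or delta-like samples (highest 651 and 1027 CPM). In alpha-like cells 5 of 10 tested were lower and 1 higher, beside 18.5% of all genes each way, with a median log2 difference of -0.59. In delta-like cells 7 of 10 were lower and none higher, beside 12.8% and 13% of all genes, with a median of -0.50.

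Acly, the ATP-citrate lyase that supplies acetyl-CoA to both routes, gave most of the sum. It stood at 690, 633, 885 and 597.5 CPM in beta-like cells and at 299, 313.5, 347 and 288 CPM in alpha-like cells of the same samples. It was lower in all 5 classes, by log2 -1.15 ± 0.116 in alpha-like cells (edgeR adjusted p = 1.28e-11) and by log2 -0.55 ± 0.113 in delta-like cells.

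Elovl5, an elongase of polyunsaturated fatty acids, stood at 138, 133, 158 and 134 CPM in beta-like cells and at 45.1, 56.8, 43.4 and 50.7 CPM in alpha-like cells, with no overlap (log2 -1.50 ± 0.114, edgeR adjusted p = 1.66e-15). In endothelial-like cells it was higher than in beta-like cells instead, at 149 to 188 CPM (log2 0.36 ± 0.128, edgeR adjusted p = 0.0308). That call held in 8 of 12 alternatives. It was lost with no filter on low counts (edgeR adjusted p = 0.160), in the controls alone (0.0904), without mutant 2 (0.104) and without control 2 (0.226). Scd2, a stearoyl-CoA desaturase, was lower in alpha-like cells by log2 -1.36 ± 0.124 and not called in macrophage-like cells (log2 -0.02 ± 0.145).

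Fasn, the fatty acid synthase, did not follow them. Its log2 difference was -0.17 ± 0.139 in alpha-like cells (edgeR adjusted p = 0.366), and it passed in the delta-like contrast alone of the 5 (log2 -0.44). The endothelial-like difference was about as large (log2 -0.46, adjusted p = 0.169), and whether the contrasts differ was not tested. Me1, the malic enzyme that supplies NADPH, went the other way, at 14.1, 16.5, 13.8 and 16.6 CPM in beta-like cells and at 33.6, 26.4, 26.1 and 30.7 CPM in alpha-like cells. It was higher in alpha-like cells by log2 0.93 ± 0.169 (edgeR adjusted p = 1.31e-05). It was also higher in PP-like cells (log2 1.82 ± 0.412, edgeR adjusted p = 0.00136), on 12 and 11 UMIs, a call lost without mutant 1 (adjusted p = 0.130) and in the controls alone (0.120).
Scd1 and Fads1 were higher in macrophage-like cells than in beta-like cells, by log2 2.19 on 1 to 8 UMIs a sample and by log2 0.80. Acacb was higher in endothelial-like cells, by log2 2.45, at a mean of 9.89 CPM against 1.82 CPM in beta-like cells. It did not reach 10 UMIs in every endothelial-like sum. Fads1 in macrophage-like cells lost its call without control 2 (adjusted p = 0.194).

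Lpl differed between endocrine classes in the opposite direction. It encodes lipoprotein lipase, which releases fatty acids from circulating triglyceride, and lies on chromosome 8 from 68880491 to 68907448 (plus strand, GRCm38). It stood at 104, 137, 253 and 173 CPM in beta-like cells and at 570, 593.5, 881 and 624 CPM in alpha-like cells (mutant 1, mutant 2, control 1, control 2). Every alpha-like value lay above every beta-like value. The difference was log2 2.04 ± 0.111 SE (edgeR adjusted p = 1.50e-20). Delta-like cells, at 145, 142, 221.5 and 208 CPM, were not called against beta-like cells (log2 0.14 ± 0.115, edgeR adjusted p = 0.442). The part of beta cell RNA in the delta-like values was not tested.

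Plin3, which coats young lipid droplets, was scarce in beta-like cells. It stood there at 3.38, 2.40, 1.80 and 3.42 CPM, on 17 to 37 UMIs a sample. In delta-like cells it stood at 17.5, 19.2, 14.9 and 17.4 CPM and in alpha-like cells at 6.98, 14.8, 16.6 and 26.0 CPM. No delta-like or alpha-like value fell into the beta-like range. Plin3 was higher in all 5 classes, by log2 2.51 ± 0.295 in alpha-like cells (edgeR adjusted p = 1.00e-09) and log2 2.65 ± 0.292 in delta-like cells. The PP-like sums had 3 and 12 UMIs of it, and the macrophage-like sum of control 1 had none. Its paralogue Plin2 was called higher in endothelial-like (log2 1.65 ± 0.262) and macrophage-like cells (log2 1.58 ± 0.281). Dgat2, which makes triglyceride, was higher in macrophage-like cells by log2 2.34 ± 0.601, on 1 to 8 UMIs a sample. Cd36, a fatty acid translocase, had only 6 to 13 UMIs in each beta-like sum and was higher in alpha-like, delta-like, endothelial-like and macrophage-like cells, although 26 of the 35 delta-like UMIs came from control 1.

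Over all 37 members tested, 4 were higher and 21 lower in alpha-like cells, 2 and 20 in delta-like, 2 and 9 in PP-like, 6 and 10 in endothelial-like and 7 and 12 in macrophage-like cells. The matching shares of all genes called higher were 18.5%, 13%, 5.2%, 15.3% and 17.1%, and those of genes called either way were 37%, 25.8%, 11.2%, 27.9% and 29.2%. Idi1, Dhcr7, Fads2 and Gpam had too few counts to be tested. In the controls alone, without any mutant sample, 21 members were called in alpha-like and 18 in delta-like cells, beside 3085 and 1857 of 12868 genes tested. There, counts dropped to 9 in endothelial-like and 10 in macrophage-like cells, beside 2297 and 1464 of 12868 genes. In other genes of the sterol pathway (24 tested, listed with these results known), 3 were higher and 12 lower in alpha-like cells. In other fatty acid genes (39 tested) the split was 9 and 11, and in oxidation genes (22 tested) it was 4 and 3.

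Between genotypes, the lipid genes of beta-like cells differed little. None of the 41 members passed at an edgeR adjusted p of 0.05, beside 0.647% of all genes. At an unadjusted p of 0.05, 1 member was higher and 4 were lower in mutants, beside 7.66% and 6.74% of all genes. DESeq2 called 1 member (Lpl) and limma-voom none. In 5 members both mutants lay above both controls and in 14 below, beside 23.3% and 22.8% of all genes. The median log2 difference was -0.09 over the members and 0.01 over all genes. Acinar markers and the macrophage gene C1qa also differed by genotype in these sums. The 12 acinar markers, all counted in every sample, summed to 53.0 and 45.9 CPM in mutants and to 167 and 243 CPM in controls, and the 12 macrophage markers (11 or 12 counted) to 68.01 and 98.7 CPM and to 133 and 135 CPM. Most of the latter was C1qa (52.5 and 86.5 CPM in mutants, 121 CPM in both controls), while C1qb and Lyz2 stayed below 1 CPM in every sample. Their part in the lipid gene values was not tested. Levels from here on are CPM on the scale of a fit within one class, so they differ slightly from those above.

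**Figure D3:**
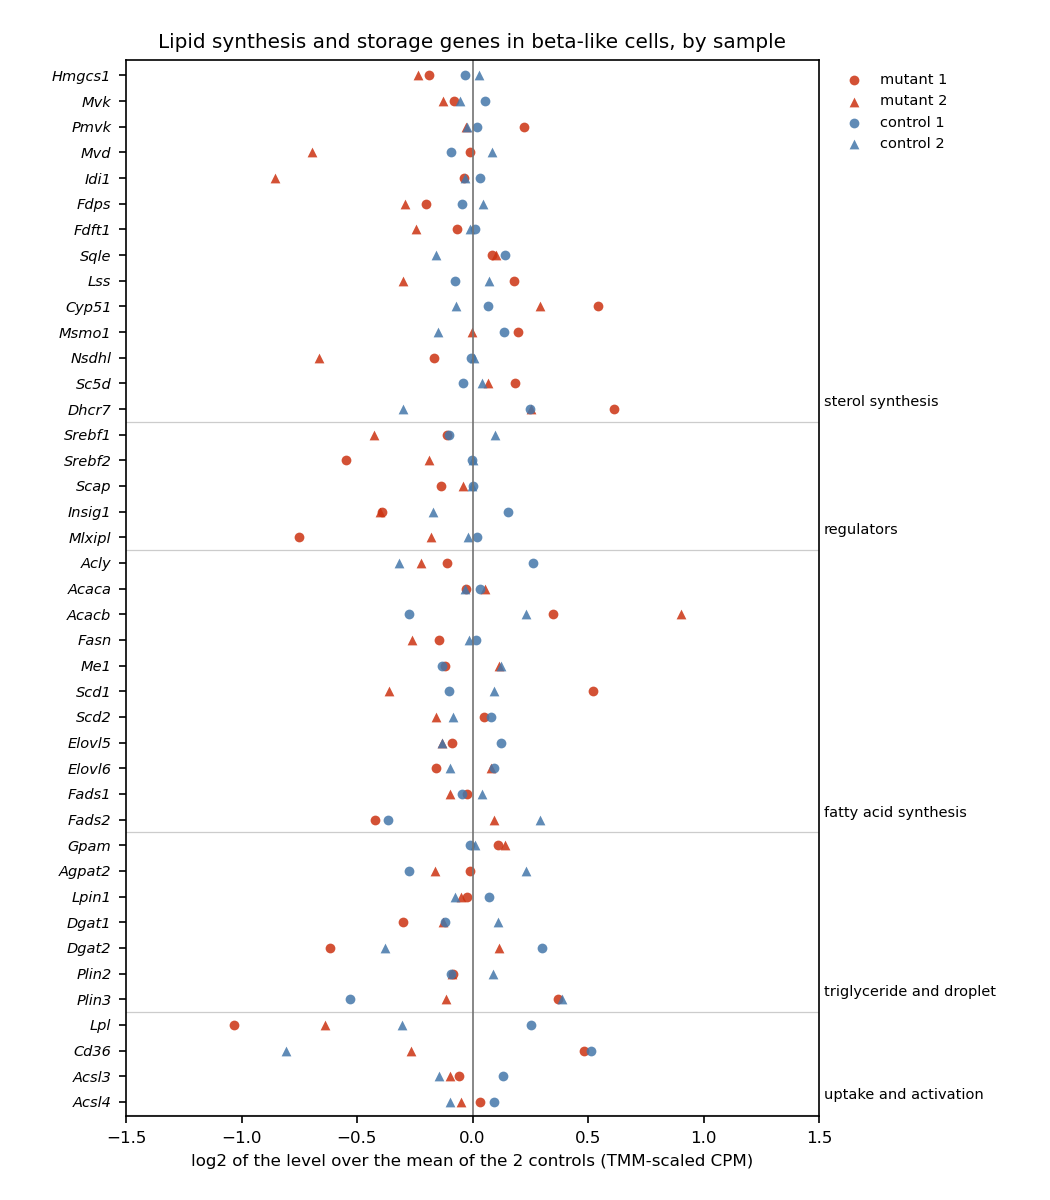
Log2 of each sample's level over the mean of the 2 controls (horizontal axis, TMM-scaled CPM) for the 41 genes (vertical axis, by role) in beta-like cells; controls are blue, mutants red, circles replicate 1 and triangles replicate 2. Most points lie within 0.5 of 0, and all 5 regulators have both mutants to the left of both controls, beside 22.8% of all genes.

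Sterol enzymes were mixed, with 6 of 14 higher and 8 lower in mutants and a median log2 difference of -0.07. As a sum they differed by log2 -0.02, less than the spread between replicates. Cyp51 encodes the lanosterol demethylase and lies on chromosome 5 (4081145 to 4104746, minus strand). Its level was 52.5 CPM in mutant 1, 44.1 CPM in mutant 2, 37.8 CPM in control 1 and 34.3 CPM in control 2. Both mutants lay above both controls, but the difference of log2 0.42 ± 0.135 SE did not pass (edgeR adjusted p = 0.216). It was log2 0.52 without mutant 2 (adjusted p = 0.168) and log2 0.63 in the Xist cells (adjusted p = 0.218). Hmgcs1 stood at 63.0, 61.0, 70.3 and 73.4 CPM and Fdps at 61.2, 57.5, 68.3 and 72.6 CPM, both lower in the mutants (log2 -0.21 and -0.25) and neither called. The sterol set thus did not shift one way, with Cyp51 high where Hmgcs1 and Fdps were low. Both mutants lay below both controls for 6 of the 14 (Hmgcs1, Mvk, Idi1, Fdps, Fdft1 and Nsdhl), beside 22.8% of all genes. They lay above for 3 (Cyp51, Sc5d and, by a very small margin, Dhcr7), beside 23.3% of all genes.

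All 5 regulators were lower in both mutants than in both controls, beside 22.8% of all genes. The median log2 difference of the 5 was -0.36, and none passed. Insig1 (chromosome 5, 28071363 to 28078662, plus strand) stood at 86.7 and 86.1 CPM in the mutants and at 126 and 101 CPM in the controls (log2 -0.40 ± 0.139, edgeR adjusted p = 0.25). Srebf2 (chromosome 15, 82147181 to 82205379, plus strand) stood at 97.9 and 126 CPM in the mutants and at 143 CPM in both controls (log2 -0.36 ± 0.144, edgeR adjusted p = 0.312).
Mlxipl (chromosome 5, 135089890 to 135138382, plus strand) stood at 106 and 158 CPM in the mutants and at 181 and 176 CPM in the controls (log2 -0.44 ± 0.179, edgeR adjusted p = 0.317). Without mutant 2, Mlxipl passed (log2 -0.77, adjusted p = 0.0435), while Srebf2 (log2 -0.57, adjusted p = 0.116) and Insig1 (log2 -0.41, adjusted p = 0.309) did not. In the Xist cells, all 5 regulators again had negative differences, 3 of them with both mutants below both controls, and none passed. The share of all genes with both mutants below both controls was not counted in the Xist cells. Those cells are part of the same sums and no independent sample. Srebf1 stood at 34.6 and 27.8 CPM in mutants and at 34.8 and 39.9 CPM in controls (log2 -0.26). Scap (log2 -0.09) turned positive when levels were scaled to library totals alone.

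**Figure D4:**
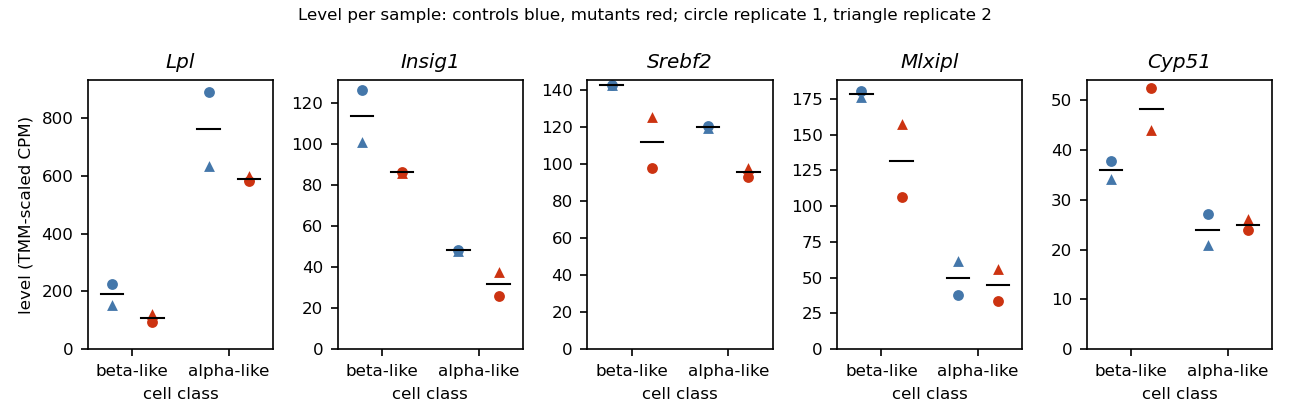
Level per sample (vertical axis, TMM-scaled CPM, scaled within each cell class, so heights are read within a class) of Lpl, Insig1, Srebf2, Mlxipl and Cyp51 in beta-like and alpha-like cells (horizontal axis); controls are blue, mutants red, bars are means of 2 samples. Lpl in beta-like cells stands at 92.4 and 122 CPM in mutants and 225 and 153 CPM in controls.

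Lpl gave the largest log2 difference between genotypes of the 41 members. In beta-like cells it stood at 92.4 CPM in mutant 1, 122 CPM in mutant 2, 225 CPM in control 1 and 153 CPM in control 2, on 926 to 2390 UMIs a sample. Both mutants lay below both controls, and the controls differed from each other by more than mutant 2 did from control 2. The log2 difference was -0.82 ± 0.202 SE, with a 95% interval from -1.28 to -0.36, and it did not pass (edgeR unadjusted p = 0.00301, adjusted p = 0.125). DESeq2 gave an adjusted p of 0.00603. In the Xist cells Lpl stood at 128 and 116 CPM in mutants and at 213 and 180 CPM in controls, and it passed there (log2 -0.68, edgeR adjusted p = 0.0483, beside 1.48% of all genes). Without mutant 2 it did not pass (log2 -1.06, adjusted p = 0.0611). It passed without control 2 (log2 -1.08, adjusted p = 0.000495), and not without control 1 (log2 -0.52, adjusted p = 0.202). Over the 15 alternatives its adjusted p ran from 0.000495 to 0.356 and its sign stayed negative.

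Fatty acid synthesis enzymes had 4 of 11 higher and 7 lower in the mutants, a median log2 difference of -0.05 and, as a sum, log2 -0.12. Fasn stood at 33.9 and 31.3 CPM in mutants and at 37.9 and 37.1 CPM in controls, the lowest p of the set (log2 -0.20 ± 0.123, edgeR adjusted p = 0.506). Acly stood at 611 and 564 CPM in mutants and at 789 and 529 CPM in controls, so the controls enclosed both mutants. The groups overlapped for 9 of the 11 genes. Fasn was lower in both mutants and Acacb higher, beside 22.8% and 23.3% of all genes.

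Genes of triglyceride and droplets had 2 of 7 higher and 5 lower, with a median of -0.09. Dgat1, an acyltransferase that completes triglyceride, had the lowest p of them (12.5 and 14.1 CPM in mutants, 14.1 and 16.6 CPM in controls, log2 -0.21 ± 0.168, edgeR adjusted p = 0.610). Gpam stood apart by a small margin, at 3.59 and 3.67 CPM in mutants and 3.30 and 3.35 CPM in controls. Acsl3 and Acsl4, which activate fatty acids, had log2 differences of -0.07 and -0.01.

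Set against each other, sterol and fatty acid genes stood in overlapping proportions in both genotypes. Per UMI of the 11 fatty acid genes, beta-like cells held 0.482 and 0.463 UMIs of the 14 sterol genes in mutants 1 and 2 and 0.400 and 0.491 in controls 1 and 2. The controls enclosed both mutants, and the low value of control 1 went with its high Acly. In alpha-like cells the ratio was 0.527 and 0.476 in mutants and 0.504 and 0.499 in controls, and in delta-like cells 0.418 and 0.416 in mutants and 0.388 and 0.455 in controls. With 2 samples a group no exact test of these ratios could reach 0.05, and none was made.

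In alpha-like cells, where Ins1Cre is not meant to act, 32 members had enough counts. None passed with edgeR, DESeq2 or limma-voom, beside 0.226% of all genes called with edgeR. At an unadjusted p of 0.05, 3 were lower in mutants and none higher, beside 3.74% and 5.64% of all genes. Insig1 stood at 25.9 and 37.8 CPM in mutants and at 48.3 and 48.0 CPM in controls (log2 -0.57 ± 0.234, edgeR adjusted p = 0.472). Plin3 stood at 7.12 and 14.9 CPM in mutants and at 16.8 and 26.4 CPM in controls (log2 -0.91 ± 0.363, edgeR adjusted p = 0.451). Lpl stood at 581 and 598 CPM in mutants and at 892 and 632 CPM in controls (log2 -0.37 ± 0.159, edgeR adjusted p = 0.492). For all 3 both mutants lay below both controls, as for 7 of the 32 members, with 2 above, beside 19.8% and 20.3% of all genes. The regulators had negative differences here too (5 of 5, median log2 -0.33), and both mutants lay below both controls for Insig1 and Srebf2. Srebf2 stood at 93.2 and 98.2 CPM in mutants and at 121 and 119.7 CPM in controls (log2 -0.33 ± 0.157, edgeR adjusted p = 0.536). Without control 2, the differences of Srebf1, Scap and Mlxipl turned positive. Acinar markers and C1qa differed by genotype in these sums as well. Acinar markers (11 or 12 of 12 counted) summed to 78.2 and 69.1 CPM in mutants and to 265 and 403 CPM in controls. Macrophage markers (7 to 11 of 12 counted) summed to 66.2 and 92.5 CPM in mutants and to 95.01 and 126 CPM in controls. Most of the latter was C1qa, at 52.8 and 74.5 CPM in mutants and 85.2 and 120 CPM in controls. C1qb stood at 0 in mutant 1 and Lyz2 at 0 in control 2. The part of RNA from other cells in these values was not tested. The insulin genes took 7.72% to 11.3% of UMIs in alpha-like sums, and the part of beta cell RNA in these differences was not tested either.

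The genotype differences of beta-like and alpha-like cells were then compared in one fit, in which alpha-like sums still contained insulin RNA. None of the 41 members passed with edgeR or DESeq2, beside 0.284% of all genes called with edgeR, while limma-voom called Lpl. At an unadjusted p of 0.05, 1 was higher and 2 were lower, beside 2.87% and 3.4% of all genes. For Lpl the beta-like difference was more negative by log2 -0.46 ± 0.128 (edgeR adjusted p = 0.215). It passed with limma-voom (adjusted p = 0.0410), with no filter on low counts (0.0328) and without mutant 2 (log2 -0.63, adjusted p = 0.0136). For Insig1 and Srebf2 the difference of differences was log2 0.17 ± 0.214 and -0.02 ± 0.156, with 95% intervals from -0.26 to 0.61 and from -0.34 to 0.29.

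Other genes of these pathways, in lists drawn up with earlier results known, also gave no call in beta-like cells. Of 24 further sterol genes tested, 2 were higher and 3 lower at an unadjusted p of 0.05, beside 7.66% and 6.74% of all genes. The 3 with the lowest p follow, none of which passed. Of these, Mbtps1, the protease that cuts SREBPs in the Golgi, stood at 47.1 and 57.0 CPM in mutants and at 68.3 and 72.0 CPM in controls (log2 -0.43 ± 0.132, edgeR adjusted p = 0.199). Nr1h2, which encodes the sterol receptor LXR-beta, stood at 12.2 and 14.9 CPM in mutants and 19.5 and 18.9 CPM in controls (log2 -0.51, adjusted p = 0.215). Npc1, which exports cholesterol from lysosomes, was at 15.1 and 10.9 CPM against 7.64 and 9.65 CPM (log2 0.58, adjusted p = 0.282).

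Of 36 further fatty acid genes tested, 2 were higher and 1 lower at an unadjusted p of 0.05, a smaller share than over all genes (7.66% and 6.74%). Hsd17b12, a reductase of fatty acid elongation, stood at 114 and 105 CPM in mutants and at 84.7 and 85.7 CPM in controls (log2 0.36 ± 0.119, edgeR adjusted p = 0.222). Pparg, a nuclear receptor of lipid storage, and Slc27a4, a fatty acid transporter, had log2 differences of 0.60 and -0.43 (edgeR adjusted p = 0.227 and 0.252).
Of 23 oxidation genes tested, 2 were higher and 1 lower at the same p, close to the share of all genes (7.66% and 6.74%). Ppargc1a, a coactivator of mitochondrial genes, stood at 21.5 and 20.2 CPM in mutants and at 9.05 and 3.35 CPM in controls (log2 1.77 ± 0.349, edgeR adjusted p = 0.0713). It passed in 5 of 15 alternatives, among them without control 1 (log2 2.63, adjusted p = 5.16e-07) and without control 2 (log2 1.20, adjusted p = 0.00141). Cpt1c, a carnitine palmitoyltransferase of the endoplasmic reticulum, was at log2 0.96 (adjusted p = 0.123). Hadha, of the trifunctional protein, was at log2 -0.36 (adjusted p = 0.258). Ppargc1a was also higher in alpha-like cells of mutants, by log2 0.87, and did not pass there (edgeR adjusted p = 0.245). The beta-like difference was larger by log2 0.92, which did not pass either (edgeR adjusted p = 0.287).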

How the data were processed

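The 4 deposited matrices held UMI counts per gene symbol and barcode. The authors made these counts from reads placed on mm10 with processing that included Seurat, per the submitters' processing notes; aligner and counter versions are not given in the sources used here. The members and lists were chosen with earlier results of these data known. Barcodes with 500 or more genes and less than 20% mitochondrial UMIs entered the analysis. The doublet caller Scrublet (scanpy 1.11.5) marked 22 cells (0.315%), too few for the caller to be taken as working. Clusters were made from 1991 variable genes, with 9 listed genes removed, so that members did not draw the classes. Counts were summed per sample and class (at least 20 cells) and tested with edgeR 4.0.16 (TMM, filterByExpr, quasi-likelihood F test, Benjamini-Hochberg over all genes tested) in R 4.3.3; the procedure was tested on simulated data, where false calls in the fit of 2 mutants against 2 controls were more frequent than the threshold implies, so adjusted p-values near 0.05 between genotypes are less firm than their size. DESeq2 1.42.0 and limma 3.58.1 were alternatives, beside other scalings, filters, classes and left-out samples. Within each group the 2 samples differed by far more than counting error (chi-square over degrees of freedom 10.8 for mutants and 13.8 for controls). Members named between genotypes were those with an unadjusted p under 0.05 and groups apart, and the lowest p of each role. Members named between classes were up to 4 each way with the largest difference and at least 10 UMIs in every sum of the higher class, and up to 3 genes of each wider list were named by lowest p. Values of 1 gene of the wider sterol list are not reported here. Other members were named after their values were seen. Precision was limited by 2 pools a group.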

Additional observations from a re-analysis of the deposited data

How the results depend on the processing

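Between genotypes, the count of members called in beta-like cells moved from 0 to 1 with DESeq2 and in the Xist cells (Lpl in both), and was 0 to 1 when single samples were left out (Mlxipl without mutant 2, Lpl without control 2). In the comparison of beta-like with alpha-like differences it moved from 0 to 1 with no filter, limma-voom, the replicate block and without mutant 2, each time for Lpl, and was 0 to 1 over left-out samples. In alpha-like cells it was 0 in every setting run. The beta-like median log2 difference moved to 0.064 for fatty acid genes on library totals only, and to 0.12 (sterol) and 0.064 (fatty acid) in the Xist cells. Over left-out samples the fatty acid median ran from -0.11 to 0.032 in beta-like cells, from -0.068 to 0.021 in alpha-like cells and from -0.17 to -0.023 in the difference. With cells gated by hormone the alpha-like sterol median was -0.39. Members called in endothelial-like cells were 10 with DESeq2, 10 with the stricter cell filter, 9 in controls only and 7 to 13 over left-out samples, against 16, and in macrophage-like cells 10 in controls only against 19. The causes were not tested, beyond fewer samples in the controls.

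Several differences changed sign, none of them called. In beta-like cells many members did so. Among them were Me1 in 10 of the 15 alternatives, Acsl4 in 5 and Lss, Scd2, Elovl6 and Acaca in 4 each. The counts of members higher and lower in mutants thus hold for the main setting only. Cyp51, Insig1, Srebf2, Mlxipl, Lpl, Fasn and Dgat1 kept their sign in beta-like cells. Of the members named by rule in alpha-like cells, Sc5d changed sign over left-out samples (-1.06 to 0.31). In the difference between classes, Srebf2 reached 0.034 on library totals and -0.17 to 0.11 over left-out samples. Over left-out samples there, Insig1 ran from -0.042 to 0.52, Mlxipl from -0.69 to 0.024, Sc5d from -0.14 to 1.12, Fasn from -0.19 to 0.21 and Dgat1 from -0.69 to 0.23. Fasn was also -0.013 with no filter, -0.019 with the stricter cell filter and -0.19 with the hormone gate, where Dgat1 was 0.18.

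All genes called in beta-like cells numbered 87, and 177 with no filter, 237 with DESeq2, 51 with the stricter cell filter, 158 in the Xist cells, 28 with the hormone gate and 69 to 349 over left-out samples. In alpha-like cells they numbered 23, and 124 with no filter and 61 to 107 over left-out samples. In the difference they numbered 38, and 23 on library totals, 64 with no filter, 6 with DESeq2, 18 with the stricter cell filter and 25 to 66 over left-out samples. Controls alone gave 3085 calls in alpha-like, 1857 in delta-like, 2297 in endothelial-like and 1464 in macrophage-like cells. All samples gave 4681, 3256, 3532 and 3686, in the same order, and 1418 in PP-like cells. How many genes were called in both fits was not counted. PP-like calls were 2378 with limma-voom and 569 to 1410 over left-out samples. Library totals alone moved the median of all genes from 0.01 to 0.12 in beta-like cells between genotypes, and by class from 0.01 to 0.19 in alpha-like, -0.01 to 0.21 in delta-like, -0.14 to 0.16 in PP-like, -0.10 to 0.03 in endothelial-like and -0.05 to 0.12 in macrophage-like cells.

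The replicate block, fitted because labels number the samples 1 and 2 in each group, called 0 members in beta-like and alpha-like cells and 1 (Lpl, log2 -0.46, adjusted p = 0.0100) in the difference. All genes called were 162, 137 and 72. Deviations of same-numbered samples had correlations of -0.0406 (beta-like) and 0.0197 (alpha-like), so the numbers were not taken as pairs.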
